A study of Mus musculus with 12 samples.

Results

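Ralgds, Rasgef1b, Slc41a1, Npl, Homer1, Dab2, Tubb6 and Isy1 are 8 of the 55335 genes counted in RNA-seq libraries of mouse neutrophils. They were chosen by name because their measured level was far higher in tumor-associated neutrophils (TANs) than in bone marrow (BM) neutrophils, so that rise is a description of the choice and is given here without a test. The neutrophils came from mammary tumors of PyMT mice, mammary tumors of PyMT-Cxcr2-/- mice and the BM of WT mice, as 4 replicate libraries per group. PyMT mice carry the polyoma middle T oncogene as a transgene active in the mammary gland, PyMT-Cxcr2-/- mice carry it and also lack the chemokine receptor Cxcr2 in all cells, and WT mice carry neither change. All mice were 10 weeks old and of the FVB background. Tumor cells were freed by enzymes from the glands numbered 4 and 9, whereas BM was spun out of femurs and tibias, and both were then enriched for CD11b and sorted as CD45+ CD11b+ Ly6G+ F4/80- cells. The study describes the TAN libraries as separate animals, whereas for BM the labels only number the replicates. Tissue, transgene and digestion changed together between TANs and BM neutrophils and cannot be told apart.

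The 8 genes do unrelated work in a cell. Small GTPases of the Ras family switch on when an exchange factor replaces their GDP by GTP, and Ralgds and Rasgef1b are such factors: Ralgds binds active Ras and activates Ral, which acts on vesicle traffic through the exocyst, and Rasgef1b acts on Rap2. Slc41a1 carries magnesium across the plasma membrane, and Npl splits free sialic acid into N-acetylmannosamine and pyruvate. Homer1 is a scaffold that ties receptors to intracellular calcium channels, Dab2 is a clathrin adaptor that takes up receptors of the LDL receptor family, Tubb6 is a beta-tubulin of microtubules and Isy1 belongs to the spliceosome.

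Counts on genes summed to between 25032704 and 51351569 per library, and 32.0% to 52.5% of a library's total was assigned to no gene feature. Levels are given as CPM, a library-size scale with TMM factors over the 12 libraries. The floor of 3 counts was 0.0584 to 0.120 CPM and covers counting error only. Cxcr2 was at 1198 ± 224 CPM (SD, n = 4) among PyMT TANs, 9.39 ± 0.576 CPM (SD, n = 4) among PyMT-Cxcr2-/- TANs and 2036 ± 195 CPM (SD, n = 4) among WT BM neutrophils. The knockout libraries were thus low in every replicate, with 10.0 CPM or less. The neutrophil gene Ly6g was present in every group, at 35.7 ± 12.2 CPM (SD, n = 4) among PyMT TANs, 125 ± 36.8 CPM (SD, n = 4) among PyMT-Cxcr2-/- TANs and 549 ± 85.3 CPM (SD, n = 4) among BM neutrophils. Macrophage genes were present as well, although the sort was on F4/80- cells, and their values stand beside the results they touch. The library of PyMT replicate 3 stood apart in red cell genes, whose 6 levels summed to 134 CPM, against 2.55 CPM or less in the other 7 TAN libraries.

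Against WT BM neutrophils, the log2 fold change of the 8 genes ran from 3.84 (Homer1) to 9.89 (Dab2) in PyMT TANs, with a median of 5.55, and from 4.22 (Homer1) to 9.77 (Dab2) in PyMT-Cxcr2-/- TANs, with a median of 5.40. The median over all genes tested was 0.09 in each comparison. Of all genes tested, 30.1% in PyMT TANs and 34.4% in PyMT-Cxcr2-/- TANs were past the thresholds in the higher direction. The thresholds were a Benjamini-Hochberg adjusted p below 0.05, with a change of at least 1.5-fold. Both comparisons use the same 4 BM libraries. For each of the 8 genes all 8 TAN libraries lay above all 4 BM libraries, as they did for 22.8% of the genes past the filter on low counts. Since these values chose the genes, nothing is read from these counts.

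**Figure D1:**
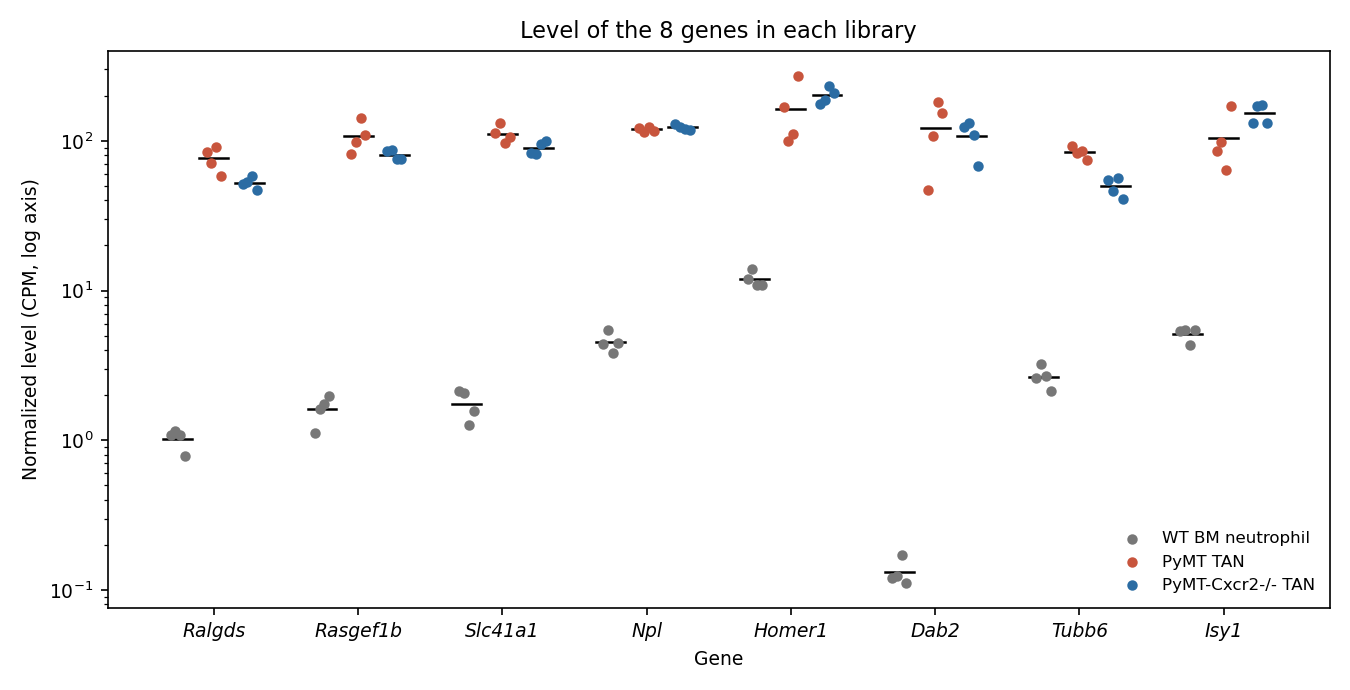
Level of each of the 8 genes in each library, in CPM on a log axis. Points are libraries (n = 4 per group), grey for WT BM neutrophils, red for PyMT TANs and blue for PyMT-Cxcr2-/- TANs, and black lines are group means. Dab2 spans the widest range, from 0.112 CPM in a BM library to 181 CPM in a TAN library, and Tubb6 and Ralgds are the genes whose red and blue points do not overlap.

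Ralgds (ENSMUSG00000026821) is a plus-strand gene at 28513125 to 28553081 of chromosome 2 (mm10). In PyMT TANs its level was 84.6, 70.8, 90.7 and 58.6 CPM in replicates 1 to 4. In PyMT-Cxcr2-/- TANs it was 51.8, 53.1, 58.4 and 46.7 CPM, and in WT BM neutrophils 1.08, 1.15, 1.09 and 0.785 CPM. Every TAN library was far above every BM library, and the 2 types of TANs touched without overlapping, since the lowest PyMT library (58.6 CPM) stood next to the highest PyMT-Cxcr2-/- library (58.4 CPM). Over BM, the level was 77.6-fold higher in PyMT TANs and 56.2-fold higher in PyMT-Cxcr2-/- TANs. Between the TANs, which the choice of genes did not use, the log2 fold change was -0.54 (SE 0.16, 95% interval -0.89 to -0.19), with an adjusted p of 0.11 in the edgeR quasi-likelihood fit (Benjamini-Hochberg). Ralgds therefore did not pass, although its unadjusted p was 0.0055 in the same edgeR fit and its groups did not overlap. Groups that did not overlap were found for 12% of all genes tested between the TANs.

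Rasgef1b (ENSMUSG00000089809) lies on chromosome 5 from 99217426 to 99729065, on the minus strand. Its level was 81.2, 97.9, 142 and 109.8 CPM in the 4 PyMT libraries. It was 85.3, 86.8, 75.5 and 75.1 CPM in the 4 PyMT-Cxcr2-/- libraries and 1.11, 1.61, 1.75 and 1.96 CPM in the 4 WT libraries. PyMT replicate 3 was the highest TAN library and PyMT replicate 1 lay within the PyMT-Cxcr2-/- range, so the TANs overlapped. Relative to BM the level was 70.1-fold in PyMT TANs and 54.9-fold in PyMT-Cxcr2-/- TANs. PyMT-Cxcr2-/- TANs differed from PyMT TANs by a log2 fold change of -0.42 (SE 0.17, 95% interval -0.80 to -0.05), with an adjusted p of 0.26 in the same edgeR test. Without PyMT replicate 3 it was -0.25, which did not pass either. No exon of another annotated gene overlaps its exons.

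The 2 genes with the pattern of level nearest to that of Ralgds over the 12 libraries, among 11092 genes searched, were Slc41a1 and Rasgef1b. After centring each gene's log2 CPM, the root mean square difference was 0.30 between Ralgds and Slc41a1 and 0.34 between Ralgds and Rasgef1b. This measure takes in the rise over BM, which chose the genes, so rises of like size bring genes near each other. In PyMT TANs that rise was 6.28 for Ralgds, 6.13 for Rasgef1b and 6.05 for Slc41a1 on the log2 scale. Nothing is read from their nearness. Rasgef1b and Slc41a1 differed from each other by 0.42, more than Npl and Tubb6 did (0.37). The promoter windows of Ralgds and its 2 nearest genes are shown as a description, together with that of Npl, from RefSeq on GRCm38.p6 (250 bases before to 50 bases after the start site, in the direction of the gene). Capitals mark matches on either strand to 7 motifs, whose letters follow with their counts.
Ralgds, chr2:28512917-28513216, plus strand: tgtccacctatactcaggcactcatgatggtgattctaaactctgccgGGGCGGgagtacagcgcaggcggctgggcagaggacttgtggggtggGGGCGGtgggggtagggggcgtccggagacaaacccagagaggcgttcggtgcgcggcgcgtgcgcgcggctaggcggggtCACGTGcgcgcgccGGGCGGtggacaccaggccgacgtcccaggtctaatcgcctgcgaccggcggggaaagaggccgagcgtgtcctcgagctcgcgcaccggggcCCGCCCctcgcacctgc
Rasgef1b, chr5:99252878-99253177, minus strand: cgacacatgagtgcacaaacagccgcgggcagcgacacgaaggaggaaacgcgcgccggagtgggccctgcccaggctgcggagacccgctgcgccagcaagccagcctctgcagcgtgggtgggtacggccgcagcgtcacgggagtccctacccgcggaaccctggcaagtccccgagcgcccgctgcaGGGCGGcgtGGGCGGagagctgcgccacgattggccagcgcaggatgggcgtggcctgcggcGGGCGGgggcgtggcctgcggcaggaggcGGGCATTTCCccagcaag
Slc41a1, chr1:131827762-131828061, plus strand: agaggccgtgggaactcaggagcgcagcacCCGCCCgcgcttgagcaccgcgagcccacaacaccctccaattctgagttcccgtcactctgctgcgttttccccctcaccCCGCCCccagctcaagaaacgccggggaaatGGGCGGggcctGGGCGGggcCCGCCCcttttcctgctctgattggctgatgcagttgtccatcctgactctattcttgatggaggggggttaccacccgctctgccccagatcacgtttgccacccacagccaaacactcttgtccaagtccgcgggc
Npl, chr1:153549665-153549964, minus strand: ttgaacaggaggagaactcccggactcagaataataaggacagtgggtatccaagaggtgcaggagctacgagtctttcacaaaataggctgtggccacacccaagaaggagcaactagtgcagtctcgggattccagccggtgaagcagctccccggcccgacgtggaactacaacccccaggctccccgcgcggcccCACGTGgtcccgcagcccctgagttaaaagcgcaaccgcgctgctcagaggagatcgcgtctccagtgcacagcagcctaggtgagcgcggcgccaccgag

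Windows were found for 7 of the 8 genes, 10 windows in all, since Ralgds, Homer1 and Dab2 have more than 1 start site in the table. The GC box, searched as GGGCGG, was present in 4 of these 10 windows, those of Ralgds (both), Rasgef1b and Slc41a1, and in 35.7% of the 32851 windows of the table. The Ralgds window shown held 4 GC boxes and Slc41a1 held 5, while Rasgef1b held 3. The E-box of the MiT/TFE family, searched as CACGTG, was present in 2 windows, at position -74 from the start site of Ralgds and at -51 from that of Npl, and in 7.15% of all windows. The NF-kappaB pattern, with any base allowed at its letters 4 and 5, was present in the window of Rasgef1b alone, as GGGCATTTCC at position 33 after the start site, and in 1.63% of all windows. The other 4 motifs were present in 0 of the 10 windows. Over the whole table, AP-1 letters (TGANTCA, N for any base) were present in 7.81% of windows. The CRE, searched as TGACGTCA, was present in 1.79% of them, and the PU.1 motif, searched as GAGGAAGT, in 3.20%. The TATA box, searched as TATAAA, was present in 13.6%. No match of one motif overlapped that of another in the windows shown. A match describes letters and not a bound site. The window of Rasgef1b was 73.3% G or C and that of Ralgds 71.0%, against a median of 52.7% over the table, whereas the first window of Dab2 was 37.7% G or C.

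Slc41a1 (ENSMUSG00000013275; chromosome 1, 131827493 to 131848865, plus strand) is the magnesium carrier. Its level was 113, 131, 96.3 and 105 CPM among PyMT TANs. It was 82.5, 82.1, 95.3 and 98.9 CPM among PyMT-Cxcr2-/- TANs and 2.13, 2.07, 1.26 and 1.57 CPM in WT BM neutrophils. The TANs overlapped through the lowest PyMT library, replicate 3, which lay below the highest PyMT-Cxcr2-/- library, replicate 4. PyMT TANs were 66.4-fold above BM and PyMT-Cxcr2-/- TANs 56.1-fold. Between the TANs it differed by a log2 fold change of -0.32 (SE 0.14, 95% interval -0.62 to -0.01), with an adjusted p of 0.30 in the same edgeR test.

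Npl (ENSMUSG00000042684; chromosome 1, 153503015 to 153550045, minus strand) is the sialic acid lyase. It was the most even of the 8 genes among TAN libraries, with 122, 115, 124 and 116 CPM among PyMT TANs. In PyMT-Cxcr2-/- TANs it was 130.0, 124, 120.1 and 119 CPM, and in WT BM neutrophils 4.41, 5.48, 3.84 and 4.49 CPM. The coefficient of variation among libraries was 3.81% in PyMT TANs and 4.09% in PyMT-Cxcr2-/- TANs, and the 2 ranges overlapped. Over BM, the level was 27.4-fold higher in PyMT TANs and 29.7-fold higher in PyMT-Cxcr2-/- TANs. The TANs differed by a log2 fold change of 0.05 (SE 0.11, 95% interval -0.20 to 0.29), with an adjusted p of 0.93 in the same edgeR test, and its sign turned under library totals alone (-0.14).

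Homer1 (ENSMUSG00000007617; chromosome 13, 93299635 to 93405129, plus strand), the scaffold, had the highest BM level of the 8 genes in CPM. Its level was 169, 99.1, 112 and 270.4 CPM among PyMT TANs. It was 177, 188, 234 and 208 CPM among PyMT-Cxcr2-/- TANs and 11.9, 13.995, 10.8 and 10.9 CPM in WT BM neutrophils. The PyMT libraries spread widely, with replicate 4 above every PyMT-Cxcr2-/- library and the other 3 below all of them. The coefficient of variation was 48.0% in PyMT TANs and 12.3% in PyMT-Cxcr2-/- TANs, a difference in spread that was not tested. Relative to BM the level was 14.3-fold in PyMT TANs and 18.6-fold in PyMT-Cxcr2-/- TANs. Between the TANs it differed by a log2 fold change of 0.31 (SE 0.27, 95% interval -0.29 to 0.90), with an adjusted p of 0.69 in the same edgeR test, and it was 0.67 without PyMT replicate 4, 0.14 without replicate 2 and 0.17 without replicate 3, none of which passed.

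Dab2 (ENSMUSG00000022150; chromosome 15, 6299788 to 6440712, plus strand), the clathrin adaptor, was nearly absent from BM. It had 4, 4, 6 and 4 counts in the 4 WT libraries, or 0.120, 0.124, 0.172 and 0.112 CPM. In PyMT TANs it was 46.9, 108, 181 and 154 CPM, and in PyMT-Cxcr2-/- TANs 123, 131, 109 and 67.7 CPM. The lowest and the highest TAN libraries were both PyMT libraries, and the PyMT-Cxcr2-/- libraries lay between them. PyMT TANs were 950.0-fold above BM and PyMT-Cxcr2-/- TANs 875-fold, which rests on those few BM counts. Between the TANs it differed by a log2 fold change of -0.19 (SE 0.35, 95% interval -0.97 to 0.59), with an adjusted p of 0.89 in the same edgeR test. Its sign turned without PyMT replicate 3 (0.069) or without PyMT-Cxcr2-/- replicate 4 (0.011). Of the 7342 exonic bases of Dab2, 211 overlap a processed pseudogene (Gm18888) on the opposite strand.

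Tubb6 (ENSMUSG00000001473; chromosome 18, plus strand), the beta-tubulin, was the only one of the 8 genes past the thresholds between the 2 types of TANs. Its level was 92.1, 82.8, 85.9 and 74.0 CPM among PyMT TANs. It was 55.0, 46.3, 56.6 and 41.1 CPM among PyMT-Cxcr2-/- TANs and 2.61, 3.22, 2.70 and 2.13 CPM in WT BM neutrophils. Every PyMT-Cxcr2-/- library was below every PyMT library and above every WT library. Over BM, the level was 32.9-fold higher in PyMT TANs and 20.5-fold higher in PyMT-Cxcr2-/- TANs. PyMT-Cxcr2-/- TANs were 1.69-fold lower (log2 fold change -0.75, SE 0.15, 95% interval -1.07 to -0.44) with an adjusted p of 0.025 in the edgeR quasi-likelihood fit (Benjamini-Hochberg). Lower genes past the thresholds made up 0.596% of the 18463 genes tested between the TANs and higher genes 1.38%. The call was lost in 7 of the 8 fits that left out 1 library, with adjusted p from edgeR between 0.052 and 0.12. Only without PyMT replicate 4 was the call kept (adjusted p of 0.039 in edgeR). It was also lost with offsets for gene length and GC content (adjusted p of 0.0547 in edgeR) and kept with DESeq2 (adjusted p of 0.0010), while the log2 fold change stayed between -0.93 and -0.65 over the 19 alternatives.

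**Figure D2:**
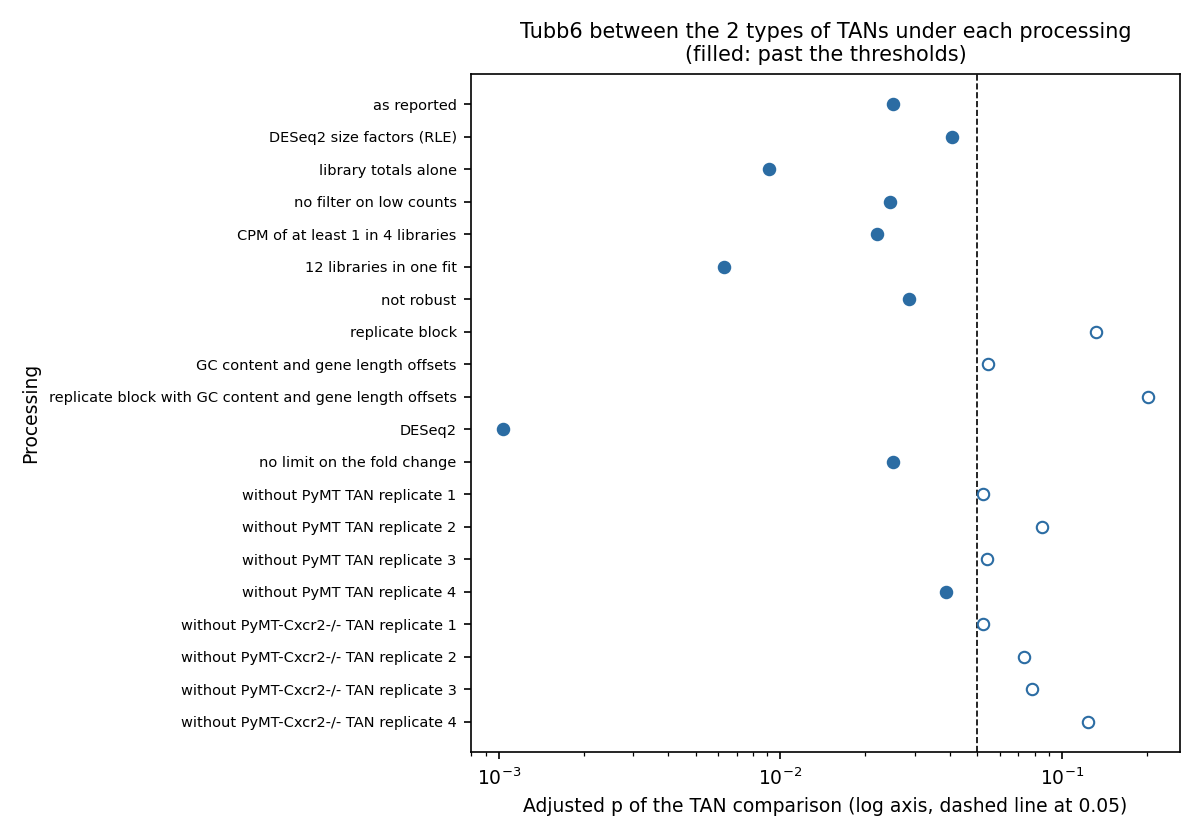
Adjusted p of Tubb6 between PyMT-Cxcr2-/- and PyMT TANs for the reported fit and 19 alternatives, on a log axis with a dashed line at 0.05. Each point is 1 fit, filled where Tubb6 was past the thresholds. The 7 open points among the fits without 1 library lie between the line and 0.12.

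Isy1 (ENSMUSG00000030056; chromosome 6, 87814269 to 87838798, minus strand), the spliceosome component, had the largest positive difference of the 8 genes between the TANs. Its level was 85.0, 98.0, 63.3 and 171 CPM among PyMT TANs. It was 132, 172, 174 and 132 CPM among PyMT-Cxcr2-/- TANs and 5.37, 5.42, 4.30 and 5.44 CPM in WT BM neutrophils. PyMT replicate 4 lay within the PyMT-Cxcr2-/- range and the other 3 PyMT libraries below it. Relative to BM the level was 21.3-fold in PyMT TANs and 32.6-fold in PyMT-Cxcr2-/- TANs. PyMT-Cxcr2-/- TANs differed from PyMT TANs by a log2 fold change of 0.54 (SE 0.26, 95% interval -0.02 to 1.11), with an adjusted p of 0.36 in the same edgeR test. Without PyMT replicate 4 it was 0.89, which did not pass either.

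The count of Isy1 is uncertain. Of its 6732 exonic bases, 747 are shared with Gm45140, a gene annotated on the same strand. Gm45140 itself was at 4.14 ± 2.39 CPM (SD, n = 4) among PyMT TANs, 5.73 ± 0.558 CPM (SD, n = 4) among PyMT-Cxcr2-/- TANs and 0.915 ± 0.319 CPM (SD, n = 4) among BM neutrophils. B130021K23Rik, annotated on the same strand within an Isy1 intron, was at 33.6 ± 19.7, 51.1 ± 8.11 and 1.70 ± 0.921 CPM (SD, n = 4 each) in the same order of groups. On average both were thus higher in TANs together with Isy1, but the lowest PyMT library of Gm45140 (0.819 CPM) lay below its highest BM library (1.26 CPM). Rab43, a gene near Isy1, overlapped BM (16.3 to 22.3 CPM) in PyMT TANs (18.1 to 30.4 CPM) and was at 33.7 to 47.4 CPM among PyMT-Cxcr2-/- TANs. The part of these genes in the count of Isy1 was not tested.

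Between the 2 types of TANs, 5 of the 8 genes had a negative log2 fold change and 3 a positive one, with a median of -0.25, against a median of -0.07 over all genes tested. Of the 8, only Tubb6 passed. Apart from Tubb6, a single alternative put one of the 8 genes past the thresholds, namely Ralgds with library totals alone (log2 fold change -0.72, adjusted p of 0.028 in edgeR). For the 7 genes that did not pass, the intervals above give the differences that the 4 libraries per group leave possible.

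**Figure D3:**
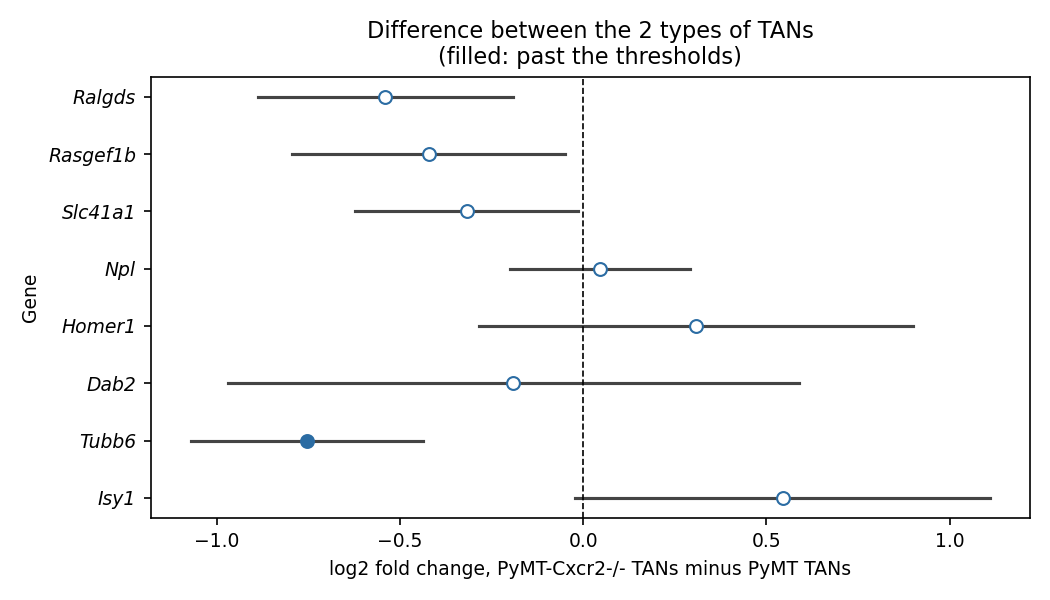
Log2 fold change of each of the 8 genes between PyMT-Cxcr2-/- and PyMT TANs (n = 4 libraries per group), with the 95% interval of the edgeR fit as a line. Negative values are lower in PyMT-Cxcr2-/- TANs. The filled point is Tubb6 at -0.75, and the widest interval is that of Dab2, from -0.97 to 0.59.

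Levels of different genes were compared per kb of exon. Npl was highest in every group, at 40.2 ± 1.53 CPM per kb (SD, n = 4) among PyMT TANs, 41.6 ± 1.70 among PyMT-Cxcr2-/- TANs and 1.54 ± 0.230 among BM neutrophils. Tubb6 followed in PyMT TANs at 34.3 ± 3.10 CPM per kb, below all Npl values and above all those of Slc41a1 (22.7 ± 3.03). From Slc41a1 down to Rasgef1b, which was lowest in both types of TANs (7.81 ± 1.88 and 5.84 ± 0.453 CPM per kb), neighbours in the order overlapped in PyMT TANs. In PyMT-Cxcr2-/- TANs, Isy1 came second at 22.6 ± 3.51 CPM per kb and overlapped Tubb6 (20.4 ± 3.02), and only Npl at the top and Rasgef1b at the bottom stood clear of their neighbours. In BM neutrophils Dab2 was lowest at 0.0180 ± 0.00370 CPM per kb and stood clear below Rasgef1b (0.116 ± 0.0262).

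Among 19186 genes ranked per kb, Dab2 was above 8.03% of genes in BM neutrophils and above 89.0% in PyMT TANs. Npl, the highest of the 8, was above 50.2% in BM neutrophils and 95.4% in PyMT TANs. Rasgef1b moved from 18.8% to 78.7%. In bulk libraries, fewer cells with a transcript and less of it per cell cannot be told apart, and this holds for all 8 genes.

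Genes whose pattern over the 12 libraries was most like that of each of the 8 were searched among 11092 genes with an average log2 CPM of at least 1. The rise over BM that chose the 8 genes enters this measure, so the neighbours are listed as a description. Rgs1 (root mean square difference 0.27) and Prdm1 (0.32) were nearest to Rasgef1b, and Xxylt1 (0.42) came after Ralgds for Slc41a1. Dusp16 (0.27) and Tgm2 (0.28) were nearest to Npl, while Tgm2 (0.20) and Gbp3 (0.26) were nearest to Tubb6. Homer1 was nearest to Cd14 (0.31) and Dot1l (0.33), and Isy1 to Mrps28 (0.29) and Lif (0.35). Dab2 had no neighbour as close, since Dcstamp (0.44) and Npnt (0.50) were its nearest, and both had 0 counts in the 4 BM libraries. With the mean absolute difference in place of the root mean square, 10 of these 16 neighbours were found again.

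Genes of other cell types also differed between TANs and BM. All 12 macrophage markers were higher in every TAN library than in every BM library, and their summed level was 2374, 5327, 5701 and 3998 CPM among PyMT TANs. It was 4694, 5398, 3109 and 2605 CPM among PyMT-Cxcr2-/- TANs and 259.8 to 365 CPM in WT BM neutrophils. Among the defining genes, Adgre1 (F4/80) was at 138 ± 51.6 CPM among PyMT TANs, 110.4 ± 28.0 CPM among PyMT-Cxcr2-/- TANs and 10.3 ± 1.40 CPM in BM neutrophils, and C1qa at 302 ± 110.0, 251 ± 93.3 and 1.26 ± 0.729 CPM (SD, n = 4 each). One marker, Ms4a7, was at 0 in at least 1 BM library, and none was at 0 in a TAN library.

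Dab2 and Rasgef1b put the libraries in the same order as each other in both types of TANs. In PyMT-Cxcr2-/- TANs that order was also the one of the macrophage sum, from replicate 4 through 3 and 1 to 2, and in PyMT TANs replicate 1 was lowest and replicate 3 highest for all 3 measures. Replicates 2 and 4 of PyMT stood in the opposite order for the macrophage sum, and there the order of Dab2 and Rasgef1b was that of the fibroblast sum. Homer1 was lowest in PyMT replicates 2 and 3, where the macrophage sum was highest. Tubb6 was highest in PyMT replicate 1, where the macrophage sum was lowest. In PyMT-Cxcr2-/- TANs, by contrast, Tubb6 was lowest in replicate 4 (41.1 CPM), where the macrophage sum was also lowest (2605 CPM). Per 1000 CPM of macrophage markers, Dab2 was at 19.8 to 38.5 CPM in TANs and 0.328 to 0.608 CPM in BM neutrophils. On that scale, the ranges of TAN and BM libraries overlapped for Homer1, Tubb6 and Isy1. The part of macrophage RNA in the levels of the 8 genes was not tested.

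**Figure D4:**
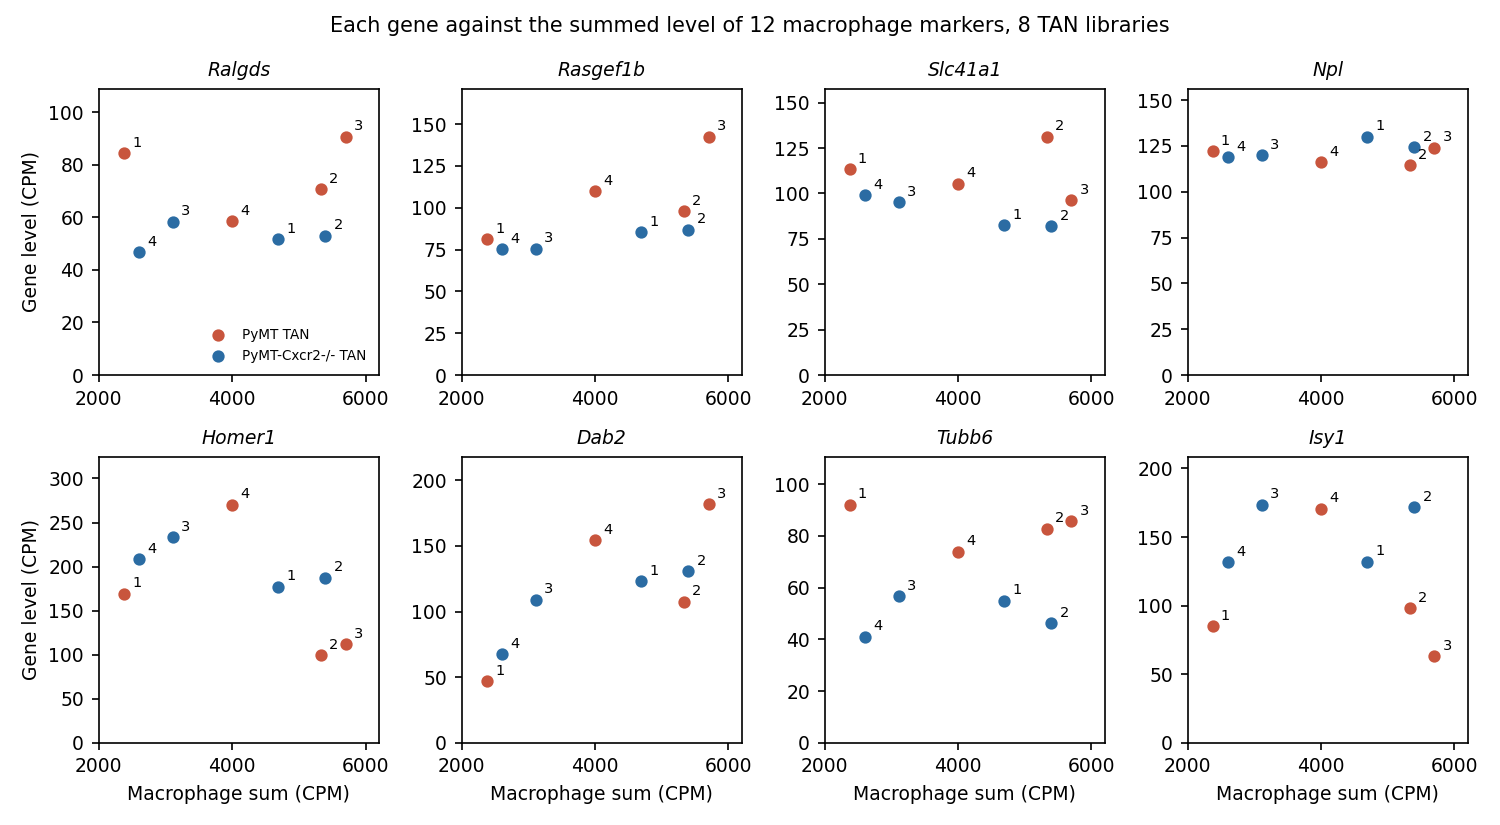
Level of each of the 8 genes in CPM against the summed level of 12 macrophage markers in CPM, for the 8 TAN libraries. Points are libraries labelled by replicate number, red for PyMT and blue for PyMT-Cxcr2-/-. Dab2 is at 46.9 CPM in the library with the lowest macrophage sum (2374 CPM) and at 181 CPM in the one with the highest (5701 CPM), whereas Npl stays between 115 and 130.0 CPM.

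The 10 epithelial markers summed to 48.9 to 464 CPM in TAN libraries and to 0.0600 to 0.516 CPM in BM libraries, where Krt8, Krt19, Krt14, Krt5, Csn3 and Csn2 were at 0 in all 4. The epithelial sum was highest in PyMT replicate 4 and PyMT-Cxcr2-/- replicate 2. Homer1 and Isy1 were also highest in PyMT replicate 4, but in PyMT-Cxcr2-/- TANs they were highest in replicate 3, where the epithelial sum was lowest. Dab2 and Rasgef1b were highest in PyMT-Cxcr2-/- replicate 2 and in PyMT replicate 3. Genes known to respond to tissue dissociation summed to 10633 to 17693 CPM in TANs and to 5112 to 6239 CPM in BM neutrophils, and 10 of 13 were above BM in every TAN library. Neutrophil markers went the other way, since 7 of 8 were lower in every TAN library than in every BM library, and 5 of 8 were past the thresholds as higher in PyMT-Cxcr2-/- than in PyMT TANs. Tubb6 put the PyMT libraries in the order of the neutrophil sum but not the PyMT-Cxcr2-/- libraries, and for Slc41a1 it was the reverse. Fibroblast, endothelial and lymphocyte markers summed to at most 39.1, 36.6 and 51.3 CPM in TANs. The lymphocyte sum was higher in BM neutrophils, at 226 to 263 CPM, most of it Cd3d (221 ± 15.6 CPM, SD, n = 4). Cd3g and Cd3e were far lower there, at 3.43 ± 0.213 and 0.211 ± 0.166 CPM (SD, n = 4 each), so the sum largely follows Cd3d alone. Of the 7 lymphocyte markers, 3 were lower in every TAN library than in every BM library. Of the 7, only Cd3d was past the thresholds as higher in PyMT-Cxcr2-/- than in PyMT TANs. The part of these genes in the results was not tested.

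The pathways around the 8 genes moved in both directions. Of 21 other exchange factors of the Ras family, 17 were tested in PyMT TANs and 19 in PyMT-Cxcr2-/- TANs, of which 8 and 9 rose over BM and 4 and 3 fell. Genes lower past the thresholds made up 23.2% of all genes tested in PyMT TANs and 25.1% in PyMT-Cxcr2-/- TANs. The median log2 fold change of the list was 1.08 and 1.44 in the same order. Among the relatives of Ralgds, Rgl1 rose from 0.853 ± 0.488 CPM in BM to 24.8 ± 14.7 CPM among PyMT TANs and 24.1 ± 7.49 CPM among PyMT-Cxcr2-/- TANs (SD, n = 4 each), and Rgl3 rose to 2.82 and 3.06 CPM from 0.0140 CPM, under the floor. Rgl2 fell from 265 ± 31.2 CPM to 73.9 ± 19.3 and 96.5 ± 5.44 CPM, and Ralgps1, another Ral exchange factor, from 181 ± 16.6 CPM to 36.5 ± 5.89 and 67.1 ± 9.51 CPM (SD, n = 4 each). Ralgps1 was also higher in PyMT-Cxcr2-/- than in PyMT TANs (log2 fold change 0.88, adjusted p of 0.022 in the edgeR quasi-likelihood fit (Benjamini-Hochberg)), the direction opposite to that of Ralgds.

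Of 13 GTPases on which these factors act, 3 rose in both types of TANs, namely Rras, Rras2 and Mras, while 5 fell in PyMT TANs (Nras, Rap1a, Rap2c, Rala and Ralb) and 3 in PyMT-Cxcr2-/- TANs (Rap2c, Rala and Ralb). Rala, a target of Ralgds, was at 35.1 ± 2.73 CPM in BM, 13.8 ± 2.25 CPM among PyMT TANs and 14.5 ± 0.533 CPM among PyMT-Cxcr2-/- TANs, and Ralb at 191 ± 19.9, 86.9 ± 21.3 and 96.8 ± 8.38 CPM (SD, n = 4 each). Of 17 GTPase activators, which switch these proteins off, 5 rose and 5 fell in PyMT TANs and 7 rose and 5 fell in PyMT-Cxcr2-/- TANs. Rasa4, a GTPase activator that switches Ras off, rose from 0.527 ± 0.149 CPM in BM to 20.5 ± 8.27 and 26.0 ± 8.23 CPM in PyMT and PyMT-Cxcr2-/- TANs (SD, n = 4 each). Among the falls in PyMT TANs were those of Rap1gap2, a GTPase activator for Rap (-2.52), and Dab2ip, a GTPase activator for Ras that binds Dab2 (-2.02). Rap1gap2 was higher in PyMT-Cxcr2-/- than in PyMT TANs (log2 fold change 0.96, adjusted p of 0.036 in the same edgeR test).

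Of 10 effectors of Ral tested, 7 fell and 1 rose in PyMT TANs, and 6 fell and 1 rose in PyMT-Cxcr2-/- TANs, with medians of -0.96 and -0.78 on the log2 scale. The gene that rose was Exoc4, from 12.4 ± 0.530 CPM in BM to 43.8 ± 9.45 and 28.0 ± 4.77 CPM (SD, n = 4 each), a subunit of the exocyst. Exoc2, the exocyst subunit that binds Ral, fell from 154 ± 3.27 CPM to 33.0 ± 3.68 CPM among PyMT TANs and 52.2 ± 5.14 CPM among PyMT-Cxcr2-/- TANs (SD, n = 4 each). Between the TANs Exoc2 was higher in PyMT-Cxcr2-/- libraries (log2 fold change 0.66, adjusted p of 0.040 in the same edgeR test).

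Around Slc41a1, 5 of 12 tested magnesium transport genes rose and 2 fell in PyMT TANs, and 6 of 13 rose and 1 fell in PyMT-Cxcr2-/- TANs. The relatives of Slc41a1 were split. Slc41a2 rose from 0.622 ± 0.187 CPM in BM to 7.55 ± 5.08 and 9.58 ± 2.45 CPM, and Slc41a3 fell from 40.7 ± 2.51 CPM to 12.998 ± 3.21 and 14.6 ± 1.79 CPM (SD, n = 4 each, PyMT and PyMT-Cxcr2-/- TANs in order). Cnnm2, a membrane protein of magnesium balance, rose from 18.4 ± 2.59 CPM to 97.9 ± 35.7 and 125 ± 9.43 CPM (SD, n = 4 each). Between the TANs, the 14 tested genes of this list had a median log2 fold change of -0.13.

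Around Npl, 4 of 10 tested genes of sialic acid metabolism rose in PyMT TANs (Nans, Slc35a1, Slc17a5 and Renbp) and 2 in PyMT-Cxcr2-/- TANs (Slc17a5 and Renbp), a count that was 4 without PyMT-Cxcr2-/- replicate 3 or replicate 4. Slc17a5, which exports free sialic acid from lysosomes, was at 6.55 ± 0.988 CPM in BM, 11.5 ± 2.87 CPM among PyMT TANs and 11.04 ± 3.45 CPM among PyMT-Cxcr2-/- TANs (SD, n = 4 each). Renbp, an epimerase that acts on N-acetylmannosamine, was at 3.80 ± 1.32, 16.5 ± 7.15 and 11.6 ± 2.94 CPM (SD, n = 4 each). Cmah, which converts the activated sialic acid Neu5Ac to Neu5Gc, was the gene that fell in PyMT TANs (log2 fold change -0.68). Cmah was at 133 ± 29.7 CPM among PyMT TANs and 263 ± 62.7 CPM among PyMT-Cxcr2-/- TANs (SD, n = 4 each), and this difference passed (log2 fold change 0.98, adjusted p of 0.029 in the same edgeR test).

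Partners of Homer1 rose in 5 of 8 tested genes in PyMT TANs (Homer2, Shank2, Shank3, Itpr1 and Itpr3) and in 4 of 7 in PyMT-Cxcr2-/- TANs (Homer2, Shank2, Itpr1 and Itpr3). Shank2, a scaffold of synapses, was low, at 4.16 ± 3.96 CPM among PyMT TANs, 3.66 ± 2.17 CPM among PyMT-Cxcr2-/- TANs and 0.0443 ± 0.0572 CPM in BM (SD, n = 4 each).

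Among 20 tested genes of clathrin uptake near Dab2, 4 rose and 11 fell in PyMT TANs, and 6 rose and 6 fell in PyMT-Cxcr2-/- TANs. Lrp1, a receptor of the LDL receptor family that is well known in macrophages, rose from 10.7 ± 2.51 CPM in BM to 561 ± 182 CPM among PyMT TANs and 611 ± 221 CPM among PyMT-Cxcr2-/- TANs (SD, n = 4 each). Epn2, an epsin, rose from 0.184 ± 0.0538 CPM to 2.54 ± 1.85 and 3.08 ± 1.33 CPM (SD, n = 4 each). Numb, an adaptor with a binding domain like that of Dab2, was at 274 ± 19.8 CPM in BM, 109.7 ± 18.1 CPM among PyMT TANs and 184 ± 32.5 CPM among PyMT-Cxcr2-/- TANs (SD, n = 4 each). Numb passed between the TANs (log2 fold change 0.74, adjusted p of 0.048 in the same edgeR test).

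Of 14 other tubulins tested against BM, 5 rose and 5 fell in PyMT TANs and 5 rose and 6 fell in PyMT-Cxcr2-/- TANs. The 5 that rose were Tuba1b, Tubb2a, Tubb2b, Tubb5 and Tubg1 in both. Tubb2a was at 4.77 ± 0.617 CPM in BM, 14.4 ± 6.67 CPM among PyMT TANs and 12.4 ± 2.30 CPM among PyMT-Cxcr2-/- TANs, while Tuba4a fell from 261 ± 26.6 CPM to 88.7 ± 18.3 and 88.0 ± 20.7 CPM (SD, n = 4 each). Reads that fit near-identical tubulins equally well can be misplaced or left out in the counting, so these counts are uncertain. Between the TANs, the 16 other tubulins tested had a median log2 fold change of -0.21.

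Near Isy1, 2 of 15 spliceosome genes of its complex rose in both types of TANs, Prpf19 and Ppie, and 5 fell in both, Ctnnbl1, Cwc15, Crnkl1, Syf2 and Bud31. Prpf19, the ubiquitin ligase of that complex, was at 10.1 ± 1.08 CPM in BM, 31.3 ± 3.85 CPM among PyMT TANs and 25.5 ± 5.91 CPM among PyMT-Cxcr2-/- TANs (SD, n = 4 each). Cwc15 fell from 31.7 ± 2.21 CPM to 13.4 ± 0.715 and 13.3 ± 0.332 CPM (SD, n = 4 each). Of the 154 other genes of the 10 lists, not all of them tested, 5 passed between the TANs in edgeR. They were Ralgps1, Rap1gap2, Exoc2, Cmah and Numb, all of them higher in PyMT-Cxcr2-/- TANs. Over all 18463 genes tested between the TANs, 1.38% passed as higher and 0.596% as lower. The count of 5 dropped to 0 without PyMT replicate 2, 3 or 4 or PyMT-Cxcr2-/- replicate 3 or 4. It was 9 without PyMT replicate 1. Exons of Tuba4a, Dab2ip, Rasa4, Numb, Ppie, Bud31 and Homer2 overlap those of other annotated genes, so their counts are uncertain too.

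**Figure D5:**
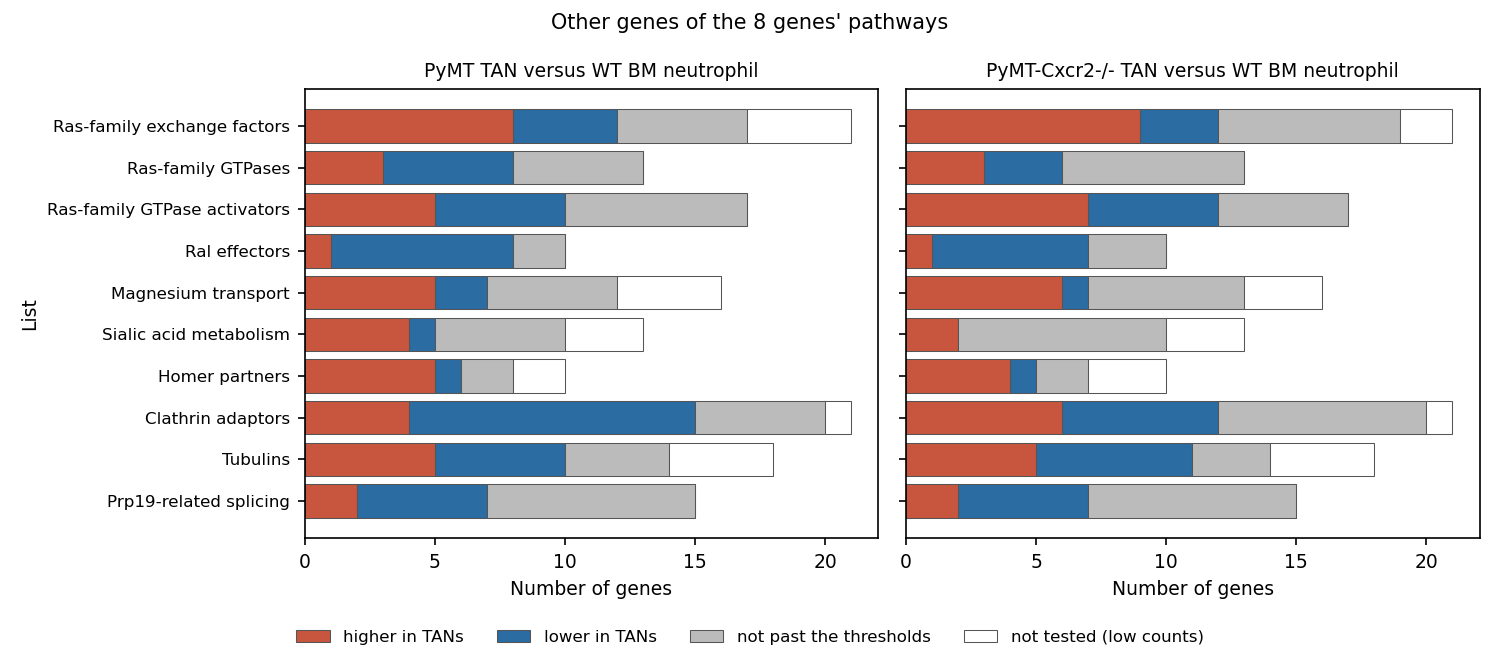
Number of genes of each of 10 pathway lists that were higher, lower or not past the thresholds in TANs against WT BM neutrophils, or not tested for low counts, without the 8 genes themselves. The left panel is PyMT TANs and the right panel PyMT-Cxcr2-/- TANs. Exchange factors have the most higher genes (8 and 9 of 21), and Ral effectors have 1 higher gene in each panel.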

How the data were processed

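RNA-seq libraries of sorted neutrophils (4 PyMT, 4 PyMT-Cxcr2-/- and 4 WT) were used, grouped by their labels. The authors removed ribosomal RNA, prepared strand-marking libraries for paired-end sequencing, trimmed the reads and mapped them with STAR to mm10, and the deposited files hold raw HTSeq counts per gene, 1 table per library. The submitters' processing notes name FastQC, HTSeq and mm10. The annotation release and the strand setting of the counting are not given in the sources used here. The 5 HTSeq classes that name no gene, 46.3% to 60.5% of a library's total, were left out. Ensembl identifiers were matched to GENCODE M21 (55154 of 55335). A chi-square comparison found more than counting noise between replicates in each of 18 within-group pairs.

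Each comparison used its own pair of groups in edgeR 4.0.16 under R 4.3.3 (TMM, filterByExpr, robust quasi-likelihood). The thresholds were a Benjamini-Hochberg adjusted p below 0.05 over all genes tested and at least 1.5-fold change. Log2 CPM for pattern searches used a prior count of 2. The study's methods name DESeq2, which served as an alternative (version 1.42.0). Further alternatives changed the normalization, the filter, the libraries fitted together, the robust option or the fold limit, added the replicate number as a block, added offsets for GC content and length (known for 99.9% of genes), or left out 1 library. Replicate numbers are those of the labels, and groups differ in genotype, so a shared number marks different animals. Deviations of libraries with the same number correlated at -0.042 on average over 12 pairs.

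The 8 genes, the lists and the tests were chosen with earlier results of these data known. By rule, the text names the 8 genes, Cxcr2, at most 2 rising and 2 falling genes of each pathway list with the largest mean change in both comparisons with BM, every list gene past the thresholds between the TANs, markers where their list is reported, and the 2 nearest genes in pattern. Other list genes were named after their values were seen. The procedure was tested on simulated data with known changes.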

Additional observations from a re-analysis of the deposited data

Results flagged for a closer look

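Isy1 in WT BM replicate 3, at 4.30 CPM, lay apart from the other 3 WT libraries, which had 5.37 to 5.44 CPM. The gap to the nearest library was 0.939 of the range of the group. In all, 24 groups of 4 libraries were looked at in this way, and chance alone sets about 1 group in 20 apart. The BM value of Isy1 enters both comparisons with TANs.

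Tubb6 had a smaller rise over WT BM neutrophils in PyMT-Cxcr2-/- TANs than in PyMT TANs. The difference, tested directly between the TANs, was -0.75 on the log2 scale (adjusted p of 0.025 in the edgeR quasi-likelihood fit, Benjamini-Hochberg), lower in all 4 PyMT-Cxcr2-/- libraries than in all 4 PyMT libraries. Its adjusted p in edgeR and DESeq2 ranged from 0.0010 to 0.20 over 19 alternatives, of which 9 kept the call.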

How the results depend on the processing

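The log2 fold change of each of the 8 genes over BM stayed positive under every alternative tried. Since that rise chose the genes, nothing is read from this. Of 152 values of their log2 fold change in each comparison with BM, 21 in PyMT TANs and 19 in PyMT-Cxcr2-/- TANs moved by more than the spread between libraries, and none changed sign. Between the TANs, 10 of 152 values lost the call (all Tubb6), 1 gained it and 5 changed sign. Npl changed sign with library totals alone (-0.14), with the GC content and length offsets (-0.082) and with these and the replicate block (-0.041), and Dab2 without PyMT replicate 3 (0.069) or PyMT-Cxcr2-/- replicate 4 (0.011), with Dab2 between -0.41 and 0.069 over the fits without 1 library. The number of the 8 genes called between the TANs was 2 with library totals alone and 0 with the replicate block, the offsets or both, and 0 to 1 with a library left out. Over all genes, 365 were called between the TANs, against 597 with library totals alone, 594 without a filter, 886 with 12 libraries in one fit, 987 with DESeq2, 104 with the offsets, 13 with the replicate block and 30 with both, and 23 (without PyMT replicate 2) to 513 (without PyMT replicate 1) with a library left out. Of the pathway genes, 5 were called between the TANs, against 8 with 12 libraries in one fit, 10 with DESeq2, 0 with the replicate block, the offsets or both, and 0 to 9 with a library left out. The numbers do not pair the libraries: same-numbered TAN libraries had correlations of -0.21 to -0.07. Library totals alone moved the median gene by -0.19 between the TANs and by 0.44 and 0.18 in PyMT and PyMT-Cxcr2-/- TANs over BM, and 3.77 CPM replaced 4.56 CPM as the BM mean of Npl. The cause of these shifts was not tested. Depth limits Dab2 in BM, with 4 to 6 counts per library.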
